A study of Mus musculus with 7 samples.

Results

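The DEAD and DEAH box RNA helicases were examined in mouse LSK cells that had lost 1 allele of Ddx41, itself a member of the family. Members were the genes in the deposited count table whose symbol starts with Ddx or Dhx and a digit, leaving out Ddx58, Dhx58 and Ddx3y. This gave 51 genes of 24421 in the table, 36 named Ddx and 15 named Dhx. The choice used symbols only and no measured value.

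RNA-seq was performed on LSK cells (Lin-Sca1+Kit+), the bone marrow fraction enriched for blood stem cells and early progenitors. Lethally irradiated BoyJ mice received marrow from RosaCreERT2 donors that carried either 1 floxed and 1 wild-type Ddx41 allele or wild-type Ddx41 alleles only. After tamoxifen the first kind is called Ddx41+/- (n = 3, replicates 6 to 8) and the second Ddx41+/+ (n = 4, replicates 1 to 4). All recipients, controls included, were given 1 mg of tamoxifen daily in 2 rounds of 5 days. LSK cells were sorted from each mouse 8 weeks after the transplant, and each sample is 1 mouse. The recombinase sits in the Rosa26 locus, so its activity is not limited to 1 blood cell type. The labels name no donor marker in the sort, so residual recipient cells cannot be told apart from donor cells in these counts. The age of the mice is not given in the labels.

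Total counts ranged from 32234499 to 43751290 per sample and did not differ between the genotypes (exact permutation p = 0.457, two-sided). Levels are given as CPM, the counts per 1000000 counts of the library, with library sizes scaled by TMM (trimmed mean of M values). Transcripts of the LSK markers Kit, Ly6a (Sca1) and Cd34 were present in all 7 samples, and the summed level of 8 LSK marker genes was 1652 to 1841 CPM in Ddx41+/+ and 1526 to 1666 CPM in Ddx41+/- samples. Transcripts from a list of mature neutrophil genes were also present, and their summed level went with genotype. The 14 of 15 listed neutrophil genes found in the table summed to 817 to 1375 CPM in Ddx41+/+ and 1462 to 2508 CPM in Ddx41+/- samples, and 1 of them, Mmp9, passed the test across all genes. Taken singly, Ngp, Retnlg, Wfdc21, Chil3 and Cxcr2 overlapped between the genotypes. Cxcr2 went the other way, with a log2 fold change of -0.24 (edgeR adjusted p = 0.697). The B-lineage list summed to 418 CPM in Ddx41+/- replicate 7 and to between 88.5 and 184 CPM in the other samples. Replicate 7 had the lowest value of the 7 samples in 21.9% and the highest in 19.3% of all genes tested. Ddx41+/+ replicate 3 came next in both, with 18.0% and 18.1%. Macrophage genes summed to 205 to 236 CPM and 207 to 283 CPM, T and NK cell genes to 237 to 289 CPM and 265 to 296 CPM, and late erythroid genes to 59.0 to 112 CPM and 99.9 to 112 CPM in Ddx41+/+ and Ddx41+/- samples. The 4 adult globin genes of that last list had 0 counts throughout, for a reason that was not tested. The late erythroid sum therefore rests on the 4 genes tested, such as Slc4a1 at 18.5 to 42.6 CPM. The 0 counts are not read as absence of erythroid RNA. In the T and NK list Nkg7 alone was at 221 to 281 CPM, and Cd3e, Cd3d, Cd3g and Ncr1 were each at 0.386 CPM or less. The part of these other cells in the helicase values below was not tested. In such bulk samples, fewer cells of a type and less RNA per cell cannot be told apart.

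RNA helicases use ATP to open RNA duplexes or to strip proteins from RNA. DEAD and DEAH box proteins are named after the amino acids of 1 of their conserved ATPase motifs, motif II. Different members serve different steps in the life of an RNA, from splicing and export to ribosome assembly, translation and decay. DDX41 is a component of the catalytic spliceosome and has also been linked to R-loops, small nucleolar RNA processing and nucleic acid sensing, and inherited mutations in it predispose to myeloid neoplasms.

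The coding bases of motif II show what the members share at the sequence level. They were read from the coding strand of GENCODE M21 transcripts (GRCm38), taking the longest coding sequence of each gene. Each stretch below is 30 bases long, and capitals mark the motif II codons. Ddx41 is given with its chromosome neighbor Ddx46, the most abundant member Ddx5, the translation helicase Ddx3x, the near-identical pair Ddx19a and Ddx19b, and the DEAH member Dhx15.
Ddx41: ctagccctgGATGAAGCTGACcgcatgatt
Ddx46: gttgttttaGATGAAGCAGACagaatgttt
Ddx5: cttgtccttGATGAAGCTGATaggatgctt
Ddx3x: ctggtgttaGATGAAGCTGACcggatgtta
Ddx19a: tttgttctgGACGAGGCTGATgtgatgata
Ddx19b: tttgttctgGACGAGGCTGATgtgatgata
Dhx15: ataattcttGATGAGGCCCATgaaagaaca

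In Ddx41 this stretch lies at chr13:55533047-55533076 on the minus strand, in exon 10 of 17. In Ddx46 it lies at chr13:55660749-55660778 on the plus strand, in exon 13 of 23. The other stretches are coding exon sequence at chr11:106785184-106785213 (Ddx5, minus strand, exon 7 of 13), chrX:13289399-13289428 (Ddx3x, plus strand, exon 11 of 17), chr8:110979077-110979106 (Ddx19a, minus strand, exon 8 of 12), chr8:111011326-111011355 (Ddx19b, minus strand, exon 8 of 12) and chr5:52171487-52171516 (Dhx15, minus strand, exon 4 of 14). In-frame codons for DEAD were found in 29 and for DEAH in 9 of the 51 members, against 0.738% and 0.344% of 22075 coding genes. Both searches share their first 3 codons, ran on the coding strand only, and describe letters rather than activity. Ddx26b, annotated as Ints6l, an integrator subunit relative rather than a typical helicase, also held DEAD codons. In all, 38 of the 51 members held either spelling, and the rest, Ddx39 and Ddx39b among them, matched neither. Symbol and spelling did not always go together. Dhx29 held DEAD and not DEAH codons, and Ddx11 held DEAH and not DEAD codons.

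The 30 bases printed for Ddx19a and Ddx19b are the same, and this touches their counts. Of the distinct stretches of 75 bases, the stated read length, 23.1% of those in Ddx19a transcripts also occurred in Ddx19b, and 10.2% of those in Ddx19b occurred in Ddx19a. Ddx18 shared 44.2% of its stretches with other annotated genes, led by Gm16433. Ddx49 shared 22.5% with the opposite-strand gene Homer3, Ddx54 10.4%, mostly with Gm43579, and Ddx39 10.2% with Adgre5. Ddx43 also shared over 10%. Ddx41 shared 8.77% with the opposite-strand gene Gm46416. For all of these genes the assignment of reads is uncertain. Ddx18, Ddx19a and Ddx19b share sequence with genes at other loci. Ddx49, Ddx54, Ddx39, Ddx43 and Ddx41 overlap genes on the opposite strand, and the use of strand in counting is not given in the sources used here. The other 43 members shared less than that of Ddx41, and 32 of the 51 shared none.

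The first comparison asked whether the targeted gene followed the labels. Ddx41 was the only member that passed the test, and it fell in Ddx41+/-. The Ddx41+/+ samples were at 92.8, 98.8, 93.3 and 106.6 CPM in replicates 1 to 4. The Ddx41+/- samples were at 68.1, 64.4 and 69.5 CPM in replicates 6 to 8. The genotypes did not overlap, and Ddx41+/- was lower (p = 0.0286 in a two-sided exact permutation test, the smallest value that 4 against 3 samples can give). The means were 97.9 ± 6.43 CPM (SD, n = 4) and 67.3 ± 2.63 CPM (SD, n = 3), a log2 fold change of -0.54 (SE 0.071, edgeR BH-adjusted p = 0.0052). The fitted level was 68.8% of Ddx41+/+, with a 95% interval from 61.9% to 76.4%, which lies above 50%. Counts cover the whole gene. The sources used here do not say which exons the floxed allele loses, so reads from exons that remain on that allele would still be counted. The part of such reads, or of the residual recipient cells named above, in this level was not tested.

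The next comparison asked whether other helicases changed with Ddx41. Of the 51 members, 50 passed the filter on low counts and 1, Ddx25, did not. With edgeR, 1 of the 50 had a BH-adjusted p under 0.05, and that was Ddx41. Over all 13340 genes tested the share was 0.217%, and 0.0975% passed with a lower level in Ddx41+/-. None of the other 49 passed, and 0 of them passed with DESeq2 or limma-voom. Their smallest edgeR adjusted p was 0.249, for Dhx29. At an unadjusted p under 0.05 there were 4 members including Ddx41 (8%), against 10.6% of all genes. The other 3 were Dhx29, Ddx3x and Dhx36, all with higher means in Ddx41+/-, a direction that 5.7% of all genes showed at this threshold. The lower direction, which held Ddx41 alone, was shown by 4.93%.

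The intervals were narrow enough to set bounds. For 47 of the 49 other members, the 95% interval of the log2 fold change lay wholly above the Ddx41 estimate of -0.54, whereas 77.1% of all genes tested met this. The exceptions were Ddx4 and Ddx43, with means of 3.76 and 0.33 CPM in Ddx41+/+. The median half-width of the interval was 0.15 on the log2 scale in the other members and 0.23 over all genes. Apart from Ddx43, the mean level of the 48 other members tested ran from 88.8% of Ddx41+/+ for Ddx31 to 121% for Dhx29.

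**Figure D1:**
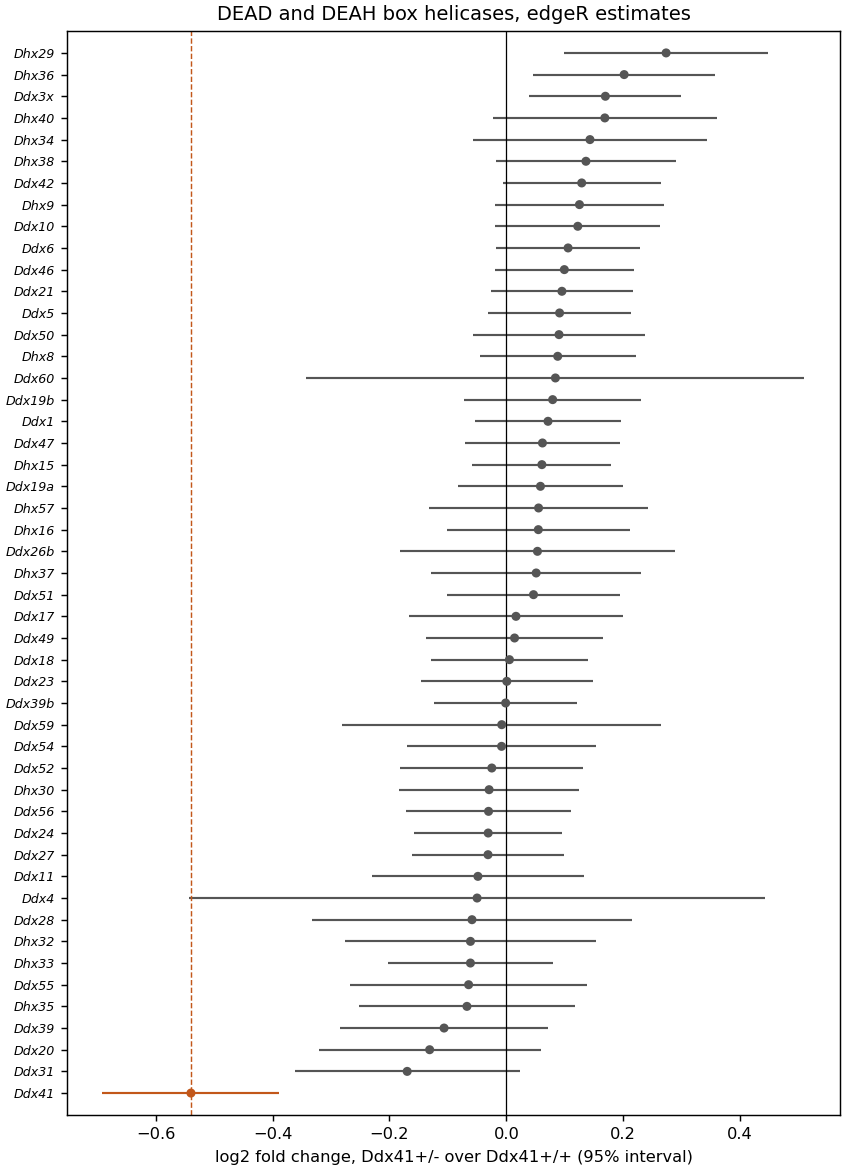
Log2 fold change (x axis, Ddx41+/- over Ddx41+/+) of 49 of the 50 helicases tested, ordered by size, with 95% intervals from the edgeR fit of 4 against 3 samples. Ddx41 (orange) lies at -0.54 and the dashed line marks that value. The interval of Ddx4 reaches the line. Those of the other helicases drawn do not. Ddx43, at under 1 CPM, has an interval wider than the axis and is left out.

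Because BH calls can miss small shifts, the samples themselves were compared. The genotypes did not overlap in CPM in 7 of 50 members (14%), against 10.1% of all genes tested. Dhx29, Ddx3x, Dhx36, Ddx46 and Ddx21 were higher in Ddx41+/- (5 of 50, against 4.85% of all genes), and Ddx41 and Ddx31 were lower (2 of 50, against 5.21%). The log2 fold change was positive in 31 of 50 members, against 48.8% of all genes, and its median was 0.052 in the members and -0.0048 over all genes. Without Ddx41+/- replicate 8 the median of the members was 0.0017 and 26 were positive. Without replicate 7 these values were 0.059 and 40.

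**Figure D2:**
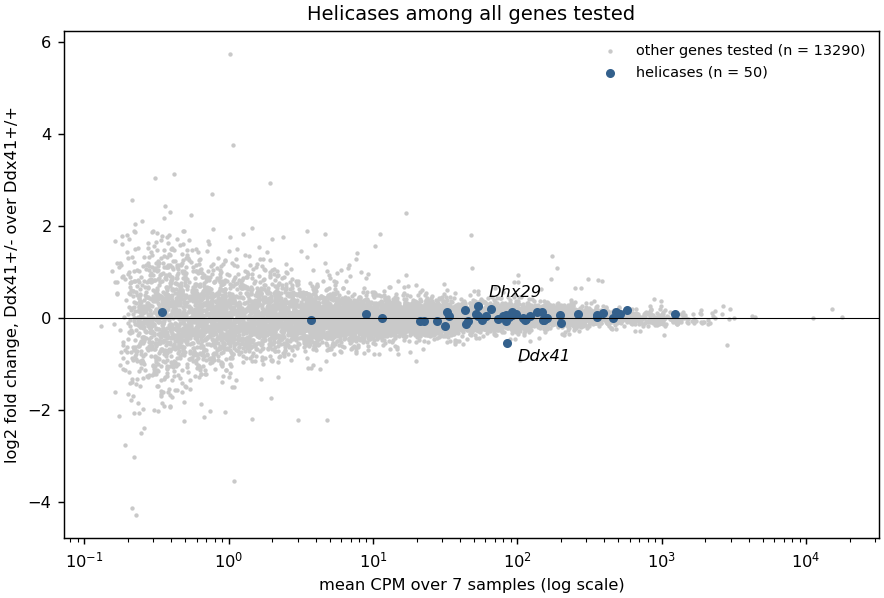
Log2 fold change (y axis) against mean CPM over the 7 samples (x axis, log scale) for the 50 helicases tested (blue) and the other genes of the 13340 tested (grey). Ddx41, at -0.54, stands below the rest of the family, and Dhx29 has the highest value at 0.27.

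Splicing helicases other than Ddx41 did not pass, and most had slightly higher means in Ddx41+/-. The list held 11 members including Ddx41, of which 9 had a positive and 2 a negative log2 fold change. Over all genes tested 48.8% were positive. Among the 9, Ddx23 was at 0.00075. Without Ddx41+/- replicate 8 the values of Ddx17, Ddx23 and Dhx16 were negative. Ddx46 acts when the branch site is recognized and is the member nearest to Ddx41 on chromosome 13, with 98.4 kb between the gene bodies. Its values were 259.4, 253.4, 244.1 and 255.0 CPM in Ddx41+/+ and 275.2, 277.4 and 260.4 CPM in Ddx41+/- samples. The genotypes did not overlap, but by less than 1 CPM at their nearest samples (edgeR adjusted p = 0.566). The Ddx41+/- mean was 107.1% of Ddx41+/+.

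Ddx42, which associates with the branch-site recognition machinery, was at 148.6, 135.4, 140.1 and 149.0 CPM in Ddx41+/+ and at 148.6, 163.8 and 157.6 CPM in Ddx41+/- samples, with overlap (log2 fold change 0.13, SE 0.064, edgeR adjusted p = 0.499). Ddx23 helps exchange the small nuclear RNAs at the upstream splice site, and its means were 161.1 ± 11.6 CPM (SD, n = 4) and 161.1 ± 8.60 CPM (SD, n = 3). Ddx5 and Ddx17 are paralogs that act in splicing and transcription. Ddx5 was at 1198 ± 39.3 CPM (SD, n = 4) and 1276 ± 54.1 CPM (SD, n = 3), with overlap (edgeR adjusted p = 0.614). Ddx17 was at 327.1, 331.7 and 420.7 CPM in the Ddx41+/- samples, so that replicate 8 alone lay above the Ddx41+/+ range of 322.6 to 382.1 CPM.

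The DEAH members of the spliceosome drive its rearrangements during and after catalysis. Dhx16 acts before the first step and was at 103.8% of the Ddx41+/+ mean. Dhx38 acts between the steps and was at 109.9% (log2 fold change 0.14, SE 0.072, edgeR adjusted p = 0.535). Dhx8 releases the spliced mRNA and Dhx15 takes the spent spliceosome apart, and they were at 106.3% and 104.3%. Dhx35, found in catalytic spliceosomes as Ddx41 is, was at 95.4%, with 39.0 CPM in Ddx41+/- replicate 7 against 43.5 to 49.2 CPM in all other samples. All of these overlapped between the genotypes, and their edgeR adjusted p-values were 0.535 or above.

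**Figure D3:**
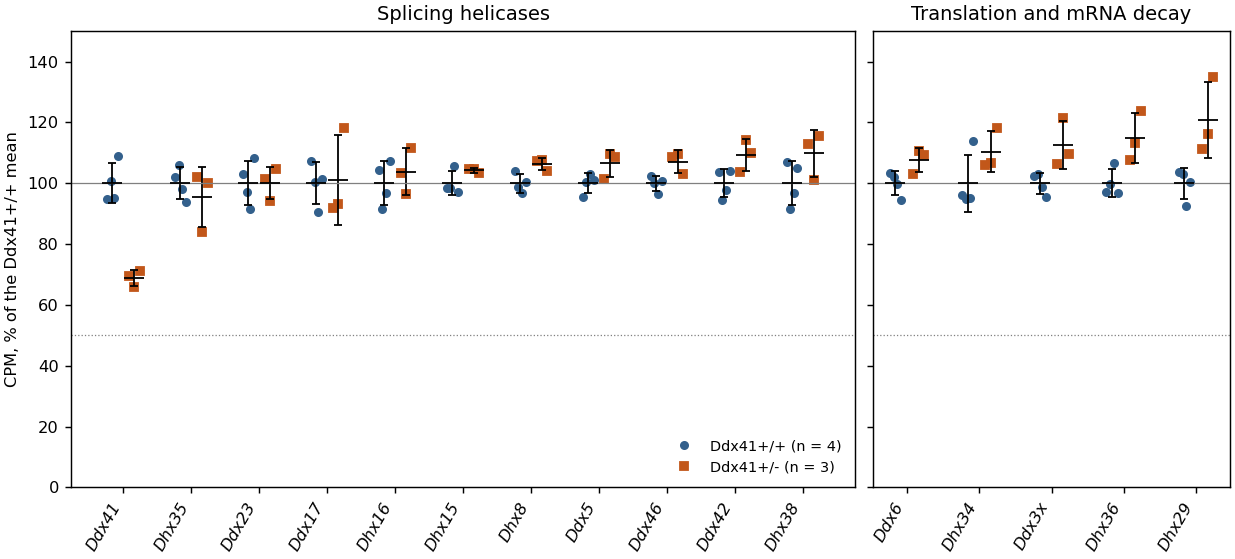
CPM of each splicing helicase (left) and each translation or mRNA decay helicase (right) in every sample, as % of that gene's Ddx41+/+ mean (y axis). Circles are Ddx41+/+ (n = 4) and squares Ddx41+/- samples (n = 3), black bars give mean ± SD, and lines mark 100% and 50%. In Ddx41 the mean of the squares is 68.8%. Of the other genes drawn, Dhx29 has the highest mean, at 121%.

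In the translation and mRNA decay list, 5 of 5 members had a positive log2 fold change, against 48.8% of all genes tested. At an unadjusted p under 0.05 there were 3, all higher in Ddx41+/-, against 5.7% of all genes in that direction, and none passed after adjustment. With 5 members, nothing particular to the list is read from these counts. Dhx29 helps ribosomes scan structured mRNA leaders. It was at 50.7, 50.4, 45.2 and 49.0 CPM in Ddx41+/+ and at 54.4, 56.8 and 65.9 CPM in Ddx41+/- samples. All Ddx41+/- samples lay above the Ddx41+/+ samples, and replicate 8 was the highest (log2 fold change 0.27, SE 0.082, unadjusted p = 0.0044, edgeR adjusted p = 0.249). Without that sample the log2 fold change was 0.19.

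Ddx3x, an X-linked helicase that assists translation initiation, was at 560.2, 565.0, 541.4 and 523.3 CPM in Ddx41+/+ and at 581.7, 664.4 and 601.0 CPM in Ddx41+/- samples. The genotypes did not overlap, with replicate 7 the highest (log2 fold change 0.17, SE 0.061, edgeR adjusted p = 0.330). Without replicate 7 the log2 fold change of Ddx3x was 0.11. Dhx36 unwinds G-quadruplexes. It was at 60.1, 61.7, 66.1 and 59.9 CPM in Ddx41+/+ and at 66.7, 70.2 and 76.7 CPM in Ddx41+/- samples, where Ddx41+/- replicate 6 and Ddx41+/+ replicate 3 were within 1 CPM (log2 fold change 0.20, SE 0.074, edgeR adjusted p = 0.334). Ddx6, which represses translation and promotes decapping, and Dhx34, which takes part in nonsense-mediated decay, were at 107.6% and 110.4% of Ddx41+/+ and overlapped. Summed over the 5 genes, the samples were at 1095, 1096, 1063 and 1028 CPM in Ddx41+/+ and at 1128, 1246 and 1197 CPM in Ddx41+/- replicates. The summed level of the neutrophil list was 2508, 1707 and 1462 CPM in Ddx41+/- replicates 6 to 8 and at most 1375 CPM in Ddx41+/+ samples, and its part in these values was not tested.

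The ribosome biogenesis list was the largest, and none of its 16 members passed. Of the 16, 8 had a positive and 8 a negative log2 fold change, with a median of -0.0015. Their Ddx41+/- means lay between 88.8% and 108.8% of Ddx41+/+. Ddx21, a nucleolar helicase of rRNA transcription and processing, was at 503.0, 507.2, 476.4 and 495.2 CPM in Ddx41+/+ and at 511.3, 559.9 and 516.3 CPM in Ddx41+/- samples, without overlap (edgeR adjusted p = 0.589). Ddx31, which processes pre-rRNA, was at 31.8, 31.7, 36.1 and 32.4 CPM in Ddx41+/+ and at 29.8, 27.3 and 30.8 CPM in Ddx41+/- samples. It had the smallest p among the genes with a lower mean, other than Ddx41, and the genotypes were within 1 CPM at their nearest samples (log2 fold change -0.17, SE 0.091, edgeR adjusted p = 0.539). Dhx33, another rRNA helicase, was at 95.8% and overlapped. The summed level of the list was 1898 ± 31.5 CPM (SD, n = 4) and 1936 ± 2.03 CPM (SD, n = 3).

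The helicases of mRNA export did not pass either. Ddx39b, a core component of the export machinery that loads on spliced mRNA, was at 460.9 ± 21.4 CPM (SD, n = 4) and 460.5 ± 9.17 CPM (SD, n = 3), a log2 fold change of -0.0012 (95% interval -0.12 to 0.12). Its paralog Ddx39 was at 195.1, 202.6, 214.1 and 212.6 CPM in Ddx41+/+ and at 217.8, 161.8 and 194.6 CPM in Ddx41+/- samples. Replicate 7 was the lowest and replicate 6 the highest of all 7 samples, and without replicate 7 the log2 fold change of -0.11 became 9.4e-06. Ddx19a and Ddx19b, which release mRNA at the nuclear pore, were at 104.1% and 105.6% of Ddx41+/+, with the split between them uncertain as given above.

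The remaining members were in small groups. Ddx20 belongs to the complex that assembles small nuclear ribonucleoproteins, and was at 41.9, 42.4, 47.5 and 50.8 CPM in Ddx41+/+ and at 41.1, 39.2 and 44.7 CPM in Ddx41+/- samples, with overlap (log2 fold change -0.13, SE 0.090, edgeR adjusted p = 0.648). Without Ddx41+/+ replicate 4 the log2 fold change of Ddx20 was -0.076. Dhx9, a nuclear helicase that acts on structured RNA and RNA-DNA hybrids, was at 463.7 ± 27.7 CPM (SD, n = 4) and 505.8 ± 43.5 CPM (SD, n = 3), and overlapped (adjusted p = 0.549, edgeR). Ddx1, part of the tRNA ligase complex, was at 105.1%. Ddx28 and Dhx30 help assemble mitochondrial ribosomes, and were at 96.0% and 97.9%. Ddx11, a DNA helicase of sister chromatid cohesion, was at 96.6%. Among the 5 less studied members, Dhx40 had the smallest p, with 112.4% of Ddx41+/+ (edgeR adjusted p = 0.540).

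Helicases with a known restriction to other tissues or states were at low levels, and Ddx43 and Ddx25 were near the detection limit. Ddx4, a germ cell helicase, was at 3.76 ± 0.40 CPM (SD, n = 4) and 3.62 ± 0.83 CPM (SD, n = 3). Ddx60, an interferon-inducible antiviral helicase, was at 8.72 ± 0.91 CPM (SD, n = 4) and 9.21 ± 2.92 CPM (SD, n = 3), and its Ddx41+/- samples were at 10.7, 5.84 and 11.1 CPM. Ddx43 had between 7 and 24 counts in 6 samples and 0 in Ddx41+/+ replicate 3, where 0 counts allow up to 0.0948 CPM. Ddx25, a testis helicase, had 0, 2, 0 and 0 counts in Ddx41+/+ and 1, 19 and 1 counts in Ddx41+/- samples, and 0 counts allow up to 0.0725, 0.0948 and 0.0829 CPM in Ddx41+/+ replicates 1, 3 and 4. Only replicate 7 had more than 3 counts, and that library also had the highest summed level of B-lineage genes. These limits for 0 counts cover counting error only.

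To compare levels between genes, CPM were divided by the merged exon length in GENCODE M21. Mean levels over all samples ranged from 0.0137 CPM per kilobase (kb) for Ddx25 to 213 CPM per kb for Ddx5. The 5 highest were Ddx5, Ddx39b, Ddx3x, Ddx21 and Dhx9, which together made up 41.2% of the summed CPM of the family. In Ddx41+/+ the values of these 5 were 207.4, 121.8, 103.7, 95.7 and 48.3 CPM per kb. Ddx41 ranked 15 of 51, with 36.4 CPM per kb in Ddx41+/+ and 25.1 CPM per kb in Ddx41+/- samples. Only 2 members, Ddx43 and Ddx25, were below 1 CPM per kb, and 32 were at 10 or above. The within-genotype SD of log2 CPM had a median of 0.087 over the members and 0.14 over all genes tested.

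**Figure D4:**
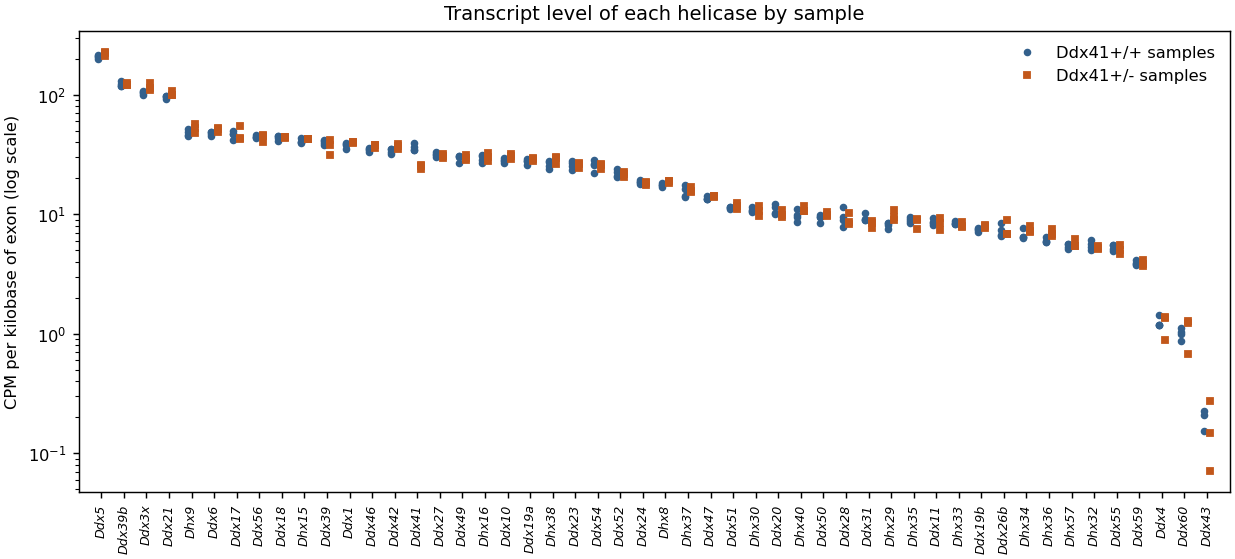
CPM per kilobase of merged exon (y axis, log scale) of 50 helicases in the Ddx41+/+ (circles) and Ddx41+/- samples (squares), ordered by mean level. Levels fall from 213 for Ddx5, and in Ddx41 the squares lie below the circles. Ddx25 is not drawn, nor is the 1 sample with 0 counts of Ddx43.

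Summed over all 51 members, the samples were at 7811, 7780, 7677 and 7853 CPM in Ddx41+/+ and at 7927, 8116 and 8253 CPM in Ddx41+/- replicates. The Ddx41+/- mean was 104.1% of the Ddx41+/+ mean, and 104.5% with Ddx41 left out. The Ddx41+/- samples were all above the Ddx41+/+ samples, the nearest being replicates 6 and 4. With library totals as the only scaling the ratio was 103.0%.

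The members lie on 15 chromosomes, 4 of them on chromosome 13. Besides Ddx41 (chromosome 13, 55530410 to 55536658) and Ddx46 these are Ddx4 and Dhx29, which lie 57062 and 57391 kb away. Their values are given above. None of the 3 passed the test.

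Helicases outside the naming rule and known helicase partners were examined as well. Of 22 listed helicases with other names, such as the eIF4A and Ski2-like proteins, 20 were tested and 0 passed with edgeR. At an unadjusted p under 0.05 there were 4 (20%), against 10.6% of all genes. The smallest p was that of Ascc3, picked after its values were seen, a subunit of the complex that resolves collided ribosomes and helps repair alkylated DNA. Ascc3 was at 53.9, 51.6, 50.4 and 50.2 CPM in Ddx41+/+ and at 59.3, 67.1 and 72.2 CPM in Ddx41+/- samples, without overlap. Its log2 fold change was 0.36 (SE 0.078, edgeR adjusted p = 0.0773). It passed with DESeq2 (adjusted p = 0.0074), without the filter on low counts (0.0268) and without Ddx41+/- replicate 6 (0.0475), and its adjusted p reached 0.325 without Ddx41+/- replicate 8. Of 53 listed cofactors, from the cap-binding, exon-junction and export complexes to G-patch proteins, 52 were tested. None passed with edgeR, DESeq2 or limma-voom. With edgeR, 5 (9.62%) had an unadjusted p under 0.05, against 10.6% of all genes.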

How the data were processed

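The deposited values were raw whole-number counts per gene symbol, which the authors made from poly(A) RNA libraries read as 75-base pairs. Per the submitters' processing notes, FastQC 0.11.7, HISAT2 2.0.5, featureCounts 1.5.2 and the mm10 assembly were used. The labels name a stranded kit and the study's methods a different one, and counting options are not given in the sources used here. Per the name of the deposited file, a Ddx41+/- library numbered 5 was removed, for a reason not stated. All 7 columns were used, and each sample was taken as 1 mouse, as the design text says. No 2 libraries agreed within sampling noise (chi-square per gene of at least 13.7 in 21 pairs).

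Groups followed the genotype label. The main test, run on 13340 genes, was quasi-likelihood testing in edgeR 4.0.16 (R 4.3.3, TMM scaling, filterByExpr, robust fit), checked on simulated data, with Benjamini-Hochberg (BH) adjustment over all genes. SE was obtained by dividing the size of the log2 fold change by the root of F, and intervals used the t quantile of the fit. CPM used TMM-scaled library sizes. The within-genotype SD used log2(CPM + 0.01). Alternatives were 3 other scalings, no filter, DESeq2 1.42.0, limma-voom (limma 3.58.1) with sample quality weights, a non-robust fit and leaving out each sample. Single values were compared by exact permutation over 35 splits. Positions and lengths came from GENCODE M21 (GRCm38, the assembly mm10), which matched 50 members by symbol and Ddx26b as Ints6l. The members and gene lists were chosen with earlier results of these data known. Genes named were Ddx41, members that passed, the 5 smallest p per direction among the rest, the 5 highest levels per kb, all splicing members and the smallest p of each other role list. The other members named were picked to account for each list.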

Additional observations from a re-analysis of the deposited data

Results flagged for a closer look

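The 51 members and their sum, 52 values in all, were checked for 1 Ddx41+/+ sample far from the other 3, by the gap to the nearest sample as a share of the whole range (Dixon's ratio). At the 95% level 6 stood out, where chance gives 2.6. With 3 samples Ddx41+/- could not be checked. In replicate 3, Ddx4 was at 4.36 CPM with the next sample at 3.58 CPM (ratio 0.960), Ddx31 was at 36.1 against 32.4 CPM (0.849) and Dhx15 at 368.4 against 343.3 CPM (0.846). Ddx47, a pre-rRNA helicase, was at 94.4 CPM in replicate 1 against 89.5 CPM (0.916). Dhx34 was at 35.3 CPM in replicate 4 against 29.8 CPM (0.922). Ddx25 had 2 counts in replicate 2 and 0 in the others, which makes its ratio 1 by construction. Ddx25 was too low to be tested between the genotypes, and the other 5 genes did not pass.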

How the results depend on the processing

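Ddx41 passed with a lower level in Ddx41+/- under each of 14 alternatives, with a log2 fold change from -0.56 to -0.50 and an adjusted p up to 0.0324. It was the 1 member that passed in each of them, and 47 or 48 others had intervals above its estimate. No paired analysis was possible because the genotypes share no replicate number. The number of members at an unadjusted p under 0.05 (4) went from 4 to 7 across the fits that each left out 1 sample, with 7 without Ddx41+/+ replicate 1 or Ddx41+/- replicate 6. In those fits the share of all genes was 11.5% and 13.7%, against 10.6% with all samples. The number without overlap (7) went from 9 to 13 with 1 sample fewer, by construction, and was highest without Ddx41+/- replicate 8. The share of all genes without overlap was not computed with 1 sample fewer, so nothing about the members is read from this rise. The number of helicases outside the naming rule that passed (0) was 1, Ascc3, with no filter, with DESeq2 and without Ddx41+/- replicate 6, so that it went from 0 to 1 when 1 sample was left out. The cause was not tested. The summed level was 103.0% of Ddx41+/+ with library totals only and 103.1% to 105.1% with 1 sample left out.

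Of 350 values for 25 named members besides Ddx41, 326 kept their sign and none passed. The other 24 changed sign. With all samples kept, these were Ddx23 (-0.014 with library totals only, -0.0072 with upper-quartile scaling), Ddx39b (0.0020 with median-of-ratios scaling, 0.0018 with DESeq2) and Ddx4 (0.030 with limma-voom). With 1 sample left out, log2 fold changes ranged from -0.13 to 0.036 for Ddx11, -0.11 to 0.079 for Ddx17, -0.039 to 0.041 for Ddx23, -0.15 to 0.051 for Ddx28, -0.21 to 9.4e-06 for Ddx39, -0.018 to 0.030 for Ddx39b, -0.16 to 0.12 for Ddx4, -0.074 to 0.32 for Ddx60, -0.00079 to 0.10 for Dhx16 and -0.12 to 0.014 for Dhx35. Values that kept their sign but moved by over 1.5 times were, without Ddx41+/- replicate 7, Ddx3x (0.11), Ddx21 (0.051), Dhx9 (0.062) and Dhx33 (-0.030), without Ddx41+/- replicate 8 Dhx33 (-0.11), without Ddx41+/+ replicate 4 Ddx20 (-0.076), and with limma-voom Dhx40 (0.11) and Dhx33 (-0.039). Over all genes the log2 fold changes had a median of -0.0048 with TMM and, farthest from it, -0.019 with library totals only. Depth limits Ddx43 and Ddx25, with at most 24 and 19 counts.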
